A study of Mus musculus with 8 samples.

Results

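The lysosomal hydrolases and membrane proteins were 35 genes that encode the enzymes, membrane proteins and proton pump subunits of the lysosome, together with the MiT/TFE transcription factors. They were taken by name from the accession that the array design gives each probe, 1 probe per gene, and are 35 of the 21154 genes named on the array. Where a gene had several probes, the one with the highest mean over the 8 arrays was taken. By role they were 8 membrane proteins, 11 glycosidases, 2 sulfatases, 5 lipid hydrolases and their helper proteins, 3 soluble proteins of the neuronal ceroid lipofuscinoses, 3 MiT/TFE factors and 3 subunits of the proton pump.

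Lysosomes are the acidic compartments in which a cell breaks down proteins, sugars and lipids, and in macrophages they receive what the cell engulfs. A proton pump in the lysosomal membrane, the V-ATPase, keeps the lumen acidic, the hydrolases work at that acidity, and membrane proteins protect the membrane and carry products out. TFEB, TFE3 and MITF bind E-box sequences in the promoters of many of these genes and are known as regulators of lysosomal gene expression.

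The series measured transcripts of cultured mouse peritoneal macrophages lacking Fra-1 or Fra-2, which are AP-1 transcription factors of the Fos family, on 8 one-colour arrays, 2 in each of 4 groups. The Fra-1 knockout group had the genotype Fra-1lox/lox MxCre-/+ (Fra-1ΔMxCre), with Fra-1lox/lox animals called wild-type as its controls. The Fra-2 knockout group was Fra-2lox/lox LysMCre-/+ (Fra-2ΔLysMCre), with wild-type Fra-2lox/lox controls. Mice were 8 weeks old, male or female, on a 129/C57Bl6 background, and controls were littermates. Every group carries floxed alleles. Mx Cre is induced by interferon and can act in many cell types, whereas LysM Cre acts in cells of the myeloid lineage. The cells were washed from the peritoneal cavity, and those that stuck to the dish after a night in culture were used. The labels of the Fra-1 line describe the macrophages as elicited with thioglycollate, and those of the Fra-2 line do not. Line, elicitation label and preparation therefore go together between the lines and cannot be told apart. P-values here measure only the spread between these samples, since the labels do not say how many animals gave each RNA.

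Between 47.7% and 57.6% of spots were well above background on each array. The Fosl1 probe, for the gene of Fra-1, read −2.73 and −1.97 on the Fra-1 control arrays and −4.78 and −4.18 on the Fra-1 knockout arrays, where it was not well above background (limma adjusted p = 0.363). Fosl2, the gene of Fra-2, has 2 probes that disagreed. The brighter read 5.51 and 5.57 on the Fra-2 control arrays and 6.43 and 7.14 on the arrays labelled Fra-2 knockout. The dimmer read −2.59 and −2.64 against −3.96 and −3.82. Where these probes lie relative to the deleted part is not given in the sources used here, so they do not check the Fra-2 labels, and every Fra-2 direction below is that of the arrays as labelled. All 8 general macrophage markers were well above background on at least 1 array of every group. In bulk RNA, fewer cells of a type and less RNA per cell cannot be told apart.

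All values below are log2 signals relative to the array's 75th percentile, so that 1 unit is a doubling, and they compare arrays for the same probe only. All 35 genes passed the filter on dim probes, and 33 were well above background on all 8 arrays. The exceptions were Gla, whose spot on Fra-2 control 1 was an outlier and was left out, and Arsb, whose probe was above background on 1 of the 2 Fra-2 control arrays.

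The RefSeq promoters of these genes (GRCm38.p6, 250 bases before to 50 bases after the start site) were not used to choose the genes. E-boxes in the promoters of many of them were known beforehand, as stated above, so the shares below are a description only. The table holds promoters for 32 of the 35. The palindromic E-box CACGTG lay in promoters of 10 of those 32 genes (31.2%), against 8.09% of all genes in the table and 7.15% of all promoters. Its extended form TCACGTGA, which contains CACGTG and is the core of the element bound by MiT/TFE factors, lay in 5 of 32 (15.6%), against 1.12% of genes and 0.974% of promoters. These 5 were Mcoln1, Cln3, Atp6v0d1, Atp6v1a and Gla. The AP-1 site TGAGTCA, which reads TGACTCA on the opposite strand, lay in 4 of 32 (12.5%), against 5.95% of genes and 5.2% of promoters. The 4 were Cd68, Psap, Glb1 and Neu1. The related site TGACGTCA lay in 2, Gusb and Mitf, against 2.03% of genes and 1.79% of promoters. Both strands were searched, and a match describes letters in this window, not a site in use.

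The promoters with the extended E-box are shown first, with TCACGTGA in capitals, for a membrane channel, a membrane protein, a pair of proton pump subunits and a glycosidase. The Mcoln1 promoter covers chr8:3500269-3500568 on the plus strand, and its motif starts 46 bases before the start site. The Cln3 promoter covers chr7:126583187-126583486 on the minus strand, with the motif 122 bases before the start. The Atp6v0d1 promoter covers chr8:105566015-105566314 on the minus strand, with the motif 4 bases before it. The Atp6v1a promoter covers chr16:44139210-44139509 on the minus strand, with the motif 132 bases before it. The Gla promoter covers chrX:134600956-134601255 on the minus strand and holds the motif at 228 and at 195 bases before the start.
Mcoln1: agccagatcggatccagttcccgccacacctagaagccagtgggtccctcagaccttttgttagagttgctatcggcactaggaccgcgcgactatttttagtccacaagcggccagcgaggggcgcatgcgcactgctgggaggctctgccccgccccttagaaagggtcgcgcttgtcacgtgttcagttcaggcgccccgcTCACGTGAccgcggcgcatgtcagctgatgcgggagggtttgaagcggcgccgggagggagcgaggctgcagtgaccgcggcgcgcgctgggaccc
Cln3: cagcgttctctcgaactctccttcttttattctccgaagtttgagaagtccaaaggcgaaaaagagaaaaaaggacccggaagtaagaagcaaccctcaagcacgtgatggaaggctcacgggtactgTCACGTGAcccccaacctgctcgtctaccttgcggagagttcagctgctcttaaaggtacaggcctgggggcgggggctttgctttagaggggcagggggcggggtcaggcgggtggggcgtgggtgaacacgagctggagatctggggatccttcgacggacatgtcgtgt
Atp6v0d1: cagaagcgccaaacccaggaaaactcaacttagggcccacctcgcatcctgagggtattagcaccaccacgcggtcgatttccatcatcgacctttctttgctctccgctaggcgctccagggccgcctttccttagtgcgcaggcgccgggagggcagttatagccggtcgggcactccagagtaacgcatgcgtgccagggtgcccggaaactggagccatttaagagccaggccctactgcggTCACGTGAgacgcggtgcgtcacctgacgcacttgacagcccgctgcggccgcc
Atp6v1a: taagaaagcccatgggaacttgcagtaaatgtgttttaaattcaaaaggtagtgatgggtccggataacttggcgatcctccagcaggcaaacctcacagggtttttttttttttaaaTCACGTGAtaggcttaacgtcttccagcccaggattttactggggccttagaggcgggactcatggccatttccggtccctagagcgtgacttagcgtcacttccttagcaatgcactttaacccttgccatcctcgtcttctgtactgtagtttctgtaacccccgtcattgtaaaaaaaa
Gla: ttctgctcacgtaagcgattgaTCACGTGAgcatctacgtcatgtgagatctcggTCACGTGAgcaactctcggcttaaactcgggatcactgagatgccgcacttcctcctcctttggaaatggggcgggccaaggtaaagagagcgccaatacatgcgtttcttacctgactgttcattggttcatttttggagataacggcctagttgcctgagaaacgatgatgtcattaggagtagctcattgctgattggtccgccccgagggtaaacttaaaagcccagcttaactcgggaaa

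The AP-1 site is shown, with TGAGTCA in capitals, for Cd68 and Psap, since the deleted factors belong to the AP-1 family. Cd68 and Psap were both called higher in the Fra-1 line between the controls, as given below. Glb1 and Neu1 also hold the site but are not printed. Their log2 differences between the controls were −0.48 and 0.25, and neither was called. The Cd68 promoter covers chr11:69666121-69666420 on the minus strand and holds the site at 149 and at 24 bases before the start. The Psap promoter covers chr10:60277378-60277677 on the plus strand, with the site 18 bases before it.
Cd68: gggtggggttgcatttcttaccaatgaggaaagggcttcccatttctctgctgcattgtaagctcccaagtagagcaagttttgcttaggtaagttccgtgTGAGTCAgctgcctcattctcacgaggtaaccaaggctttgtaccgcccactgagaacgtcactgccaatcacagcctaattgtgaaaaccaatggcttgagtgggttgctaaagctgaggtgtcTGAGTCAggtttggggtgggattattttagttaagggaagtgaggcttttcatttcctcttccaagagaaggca
Psap: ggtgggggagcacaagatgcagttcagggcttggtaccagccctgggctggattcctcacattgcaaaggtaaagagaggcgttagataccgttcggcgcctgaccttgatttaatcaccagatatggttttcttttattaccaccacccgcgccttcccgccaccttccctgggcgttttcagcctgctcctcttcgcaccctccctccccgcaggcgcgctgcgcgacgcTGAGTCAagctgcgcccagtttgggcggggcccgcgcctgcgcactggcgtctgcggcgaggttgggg

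Between the control groups, most of the lysosomal genes were higher in the Fra-1 line than in the Fra-2 line. By limma with Benjamini-Hochberg adjustment over all 23053 features, 20 of the 35 were higher at an adjusted p under 0.05 (called), where 18.1% of all features were, and 0 were lower, where 17.8% of all features were. The median difference over the 35 was 0.79, or 1.72-fold, against −0.03 over all features. Of the 35, 28 had a difference above 0, where 48.2% of all features had. The called genes came from each role: 5 of 8 membrane proteins, 5 of 11 glycosidases, 1 of 2 sulfatases, 3 of 5 lipid hydrolases and helpers, 2 of 3 ceroid lipofuscinosis proteins, 1 of 3 MiT/TFE factors and 3 of 3 pump subunits. The knockout groups share no arrays with the controls, though their differences come from the same fit and use its estimate of the spread. They also differ in the deleted gene and in the Cre driver, which cannot be told apart from the line. There 21 genes were higher in the Fra-1 line (22.3% of all features) and 2 lower (18.8% of all features), with a median difference of 0.86, or 1.82-fold, against 0.02 over all features. Both of the lower calls, Man2b1 and Tfe3, were lost under some alternatives, given with each gene. The genes called higher in both comparisons numbered 19, of the 20 between the controls and the 21 between the knockouts. The matching share over all features was not worked out, so this overlap is a count only and is not read as particular to these genes. Galc was called only between the controls, and Scarb2 and Mitf only between the knockouts, but for none of the 35 did the 2 comparisons differ at an adjusted p under 0.05, by the interaction given further on.

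**Figure D1:**
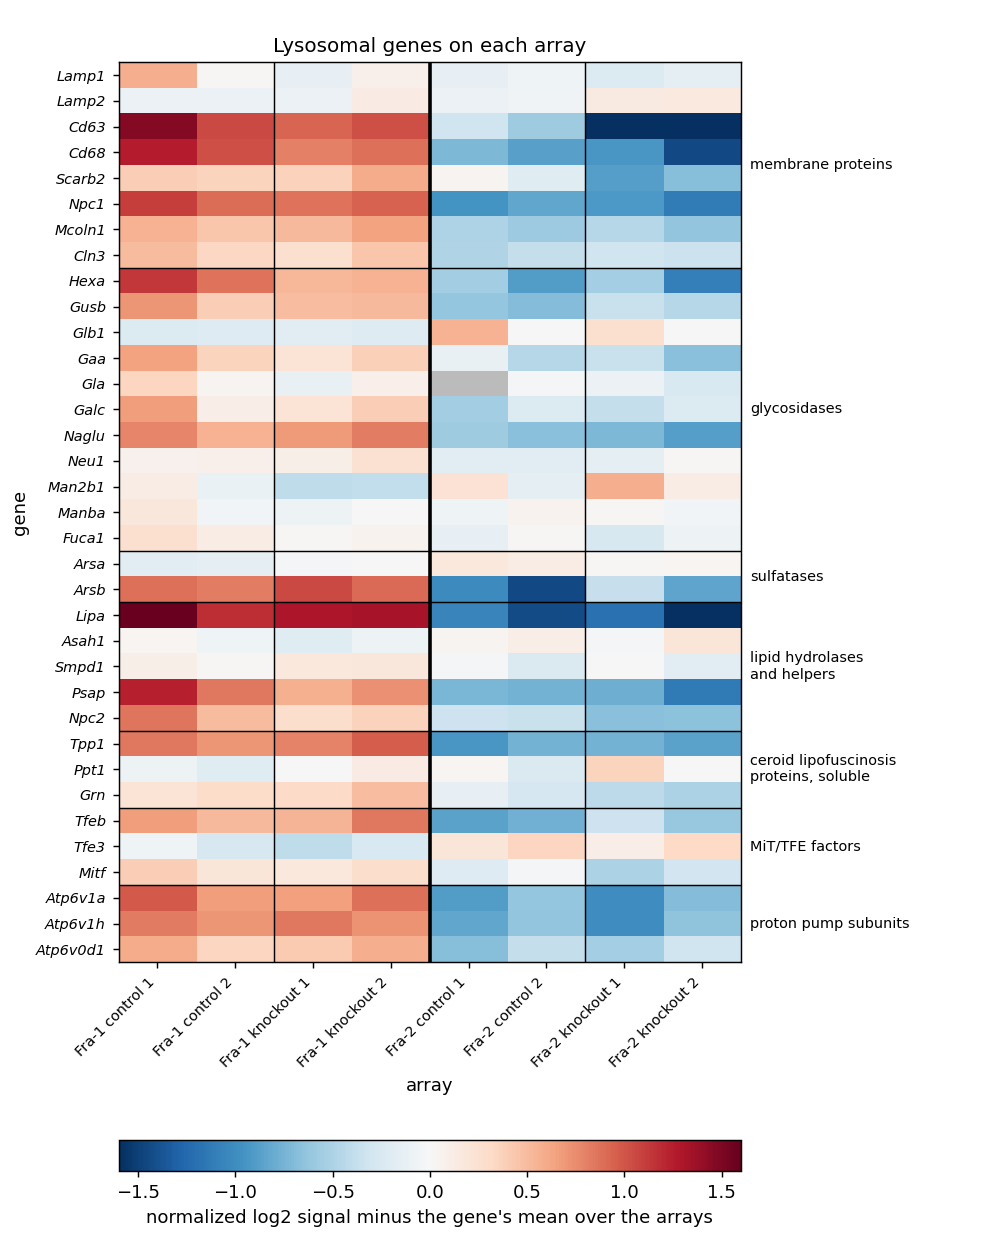
Normalized log2 signal of the 35 genes (rows, by role) on the 8 arrays (columns), minus each gene's mean over its arrays; red is above and blue below the mean, with colours ending at 1.6 units, and the grey cell is the outlier spot of Gla. The 4 columns of the Fra-1 line are red for most genes and those of the Fra-2 line blue, while Glb1, Arsa and Tfe3 run the other way.

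Among the membrane proteins, the cholesterol exporter Npc1 read 3.40 and 3.19 on the Fra-1 control arrays, 3.17 and 3.25 on the Fra-1 knockout arrays, 1.35 and 1.47 on the Fra-2 control arrays, and 1.38 and 1.19 on the Fra-2 knockout arrays. All 4 arrays of the Fra-1 line lay above all 4 of the Fra-2 line. The difference was 1.89 ± 0.14 (3.71-fold, adjusted p = 4.24e-04) between the controls, ± being the SE with 2 arrays per group, and 1.92 ± 0.14 (3.79-fold, adjusted p = 3.66e-04) between the knockouts. Cd68, a macrophage glycoprotein of late endosomes and lysosomes, read 9.18 and 8.96 on the Fra-1 control arrays, 8.73 and 8.81 on the Fra-1 knockout arrays, 7.21 and 7.06 on the Fra-2 control arrays, and 7.0 and 6.49 on the Fra-2 knockout arrays. The lines did not overlap, and the difference was 1.93 ± 0.20 (3.82-fold, adjusted p = 0.00111) between the controls. Between the knockouts it was 2.03 ± 0.20 (4.07-fold, adjusted p = 8.84e-04).

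The tetraspanin Cd63 read 9.52 and 9.11 on the Fra-1 control arrays, 8.98 and 9.08 on the Fra-1 knockout arrays, 7.73 and 7.48 on the Fra-2 control arrays, and 6.16 and 6.33 on the Fra-2 knockout arrays. The Fra-1 line was high, the Fra-2 controls lay between, and the Fra-2 knockouts were lowest. The line difference was 1.71 ± 0.18 (3.27-fold, adjusted p = 0.0013) between the controls and 2.79 ± 0.18 (6.9-fold, adjusted p = 2.63e-04) between the knockouts. Mcoln1, the lysosomal calcium channel TRPML1, read 5.95 and 5.84 on the Fra-1 control arrays, 5.93 and 6.05 on the Fra-1 knockout arrays, 4.91 and 4.82 on the Fra-2 control arrays, and 4.95 and 4.78 on the Fra-2 knockout arrays. The lines were again apart, by 1.03 ± 0.13 (2.05-fold, adjusted p = 0.00209) in the controls. In the knockouts the difference was 1.12 ± 0.13 (2.18-fold, adjusted p = 0.00147).

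Cln3, a membrane protein mutated in juvenile neuronal ceroid lipofuscinosis, read 5.18 and 5.00 on the Fra-1 control arrays, 4.94 and 5.13 on the Fra-1 knockout arrays, 4.19 and 4.29 on the Fra-2 control arrays, and 4.36 and 4.34 on the Fra-2 knockout arrays. By this brightest probe it was higher in the Fra-1 line, by 0.85 ± 0.13 (1.8-fold, adjusted p = 0.0047) in the controls and 0.68 ± 0.13 (1.61-fold, adjusted p = 0.00906) in the knockouts. A second probe of Cln3 gave 0.67 in the controls and the third gave −0.20 (adjusted p = 0.282 over all probes). Between the knockouts the second gave 0.61 and the third −0.63, and the third was called lower (adjusted p = 0.0132 over all probes). The probes of Cln3 therefore disagreed in direction, and with the mean of its probes the gene was not called between the knockouts (0.22, adjusted p = 0.186). Over the alternatives its adjusted p there was 0.00243 to 0.186, and the call was also lost without Fra-1 knockout 2. Scarb2, the receptor that carries glucocerebrosidase to the lysosome, was not called between the controls (0.45 ± 0.15, 1.37-fold, adjusted p = 0.0657) and was called between the knockouts (1.26 ± 0.15, 2.39-fold, adjusted p = 0.00191). The structural glycoproteins of the lysosomal membrane, Lamp1 and Lamp2, were called in neither comparison. Between the controls their differences were 0.40 ± 0.20 for Lamp1 (95% interval −0.10 to 0.90) and −0.02 ± 0.12 for Lamp2 (−0.32 to 0.28).

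The glycosidases, which take sugars off glycoproteins and glycolipids, were divided. Naglu, which degrades heparan sulfate, read 5.40 and 5.18 on the Fra-1 control arrays, 5.30 and 5.43 on the Fra-1 knockout arrays, 4.05 and 3.95 on the Fra-2 control arrays, and 3.90 and 3.73 on the Fra-2 knockout arrays. All Fra-1 line arrays were above all Fra-2 line arrays, by 1.29 ± 0.14 (2.45-fold, adjusted p = 0.00134) in the controls. Hexa, the alpha subunit of beta-hexosaminidase, read 8.17 and 7.91 on the Fra-1 control arrays, 7.58 and 7.6 on the Fra-1 knockout arrays, 6.48 and 6.15 on the Fra-2 control arrays, and 6.50 and 5.95 on the Fra-2 knockout arrays. Its difference was 1.73 ± 0.23 (3.31-fold, adjusted p = 0.0027) between the controls, and between the knockouts 1.36 ± 0.23 (2.57-fold, adjusted p = 0.00564). Gusb (beta-glucuronidase), Gaa (acid alpha-glucosidase) and Galc (galactosylceramidase) were also called between the controls, at 1.21 ± 0.14, 0.79 ± 0.19 and 0.77 ± 0.23.

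The other 6 glycosidases were not called between the controls. Their differences ran from −0.48 for Glb1, the beta-galactosidase, to 0.25 for Neu1, the sialidase, with Man2b1, Manba, Gla and Fuca1 between. Gla holds the extended E-box in its promoter more than once, and its difference was 0.21 ± 0.21 (adjusted p = 0.472), from 1 Fra-2 control array. Man2b1, the lysosomal alpha-mannosidase, read 7.33 and 7.10 on the Fra-1 control arrays, 6.80 and 6.81 on the Fra-1 knockout arrays, 7.44 and 7.05 on the Fra-2 control arrays, and 7.79 and 7.33 on the Fra-2 knockout arrays. The knockout groups did not overlap and the control groups did. The difference was −0.04 ± 0.21 (adjusted p = 0.909) between the controls and −0.75 ± 0.21 (1.68-fold lower, adjusted p = 0.0349) between the knockouts. The lower call between the knockouts had an adjusted p of 0.0162 to 0.132 over the alternatives. It was lost, among others, without Fra-2 knockout 1, without either Fra-1 control array and without either Fra-1 knockout array.

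Of the sulfatases, Arsb (arylsulfatase B) read −1.98 and −2.05 on the Fra-1 control arrays, −1.81 and −1.96 on the Fra-1 knockout arrays, −3.88 and −4.31 on the Fra-2 control arrays, and −3.23 and −3.71 on the Fra-2 knockout arrays. Its difference was 2.08 ± 0.22 (4.22-fold, adjusted p = 0.00122) between the controls and 1.58 ± 0.22 (3-fold, adjusted p = 0.00285) between the knockouts. The signal was dim in the Fra-2 line, and a second, dimmer probe gave 0.69 between the controls (adjusted p = 0.338 over all probes). Arsa (arylsulfatase A) differed the other way between the controls, by −0.30 ± 0.10 (adjusted p = 0.0714), and was not called.

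The lipid group held the gene with the greatest line difference of the 35 between the controls. Lipa, the lysosomal acid lipase that frees cholesterol and fatty acids from lipoproteins, read 6.96 and 6.57 on the Fra-1 control arrays, 6.67 and 6.70 on the Fra-1 knockout arrays, 4.33 and 3.94 on the Fra-2 control arrays, and 4.19 and 3.68 on the Fra-2 knockout arrays. The lines were separated by more than 2 units on every array. The difference was 2.63 ± 0.24 (6.18-fold, adjusted p = 7.96e-04) between the controls, and 2.75 ± 0.24 (6.74-fold, adjusted p = 6.40e-04) between the knockouts. Psap, the precursor of the saposins that help hydrolases reach their lipids, read 9.49 and 9.08 on the Fra-1 control arrays, 8.82 and 8.98 on the Fra-1 knockout arrays, 7.51 and 7.49 on the Fra-2 control arrays, and 7.46 and 7.11 on the Fra-2 knockout arrays. It was higher by 1.78 ± 0.19 (3.44-fold, adjusted p = 0.00134) between the controls and by 1.61 ± 0.19 (3.06-fold, adjusted p = 0.00176) between the knockouts. Npc2, which hands cholesterol to NPC1, differed by 1.03 ± 0.15 (2.04-fold, adjusted p = 0.00347) between the controls. The ceramidase Asah1 (−0.09 ± 0.13, adjusted p = 0.617) and the acid sphingomyelinase Smpd1 (0.18 ± 0.13, adjusted p = 0.329) were not called there.

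Tpp1, a lysosomal peptidase, read 3.76 and 3.61 on the Fra-1 control arrays, 3.71 and 3.88 on the Fra-1 knockout arrays, 1.98 and 2.15 on the Fra-2 control arrays, and 2.15 and 2.05 on the Fra-2 knockout arrays. The lines did not overlap, with a difference of 1.62 ± 0.13 (3.08-fold, adjusted p = 5.95e-04) between the controls and 1.69 ± 0.13 (3.23-fold, adjusted p = 4.93e-04) between the knockouts. Grn, the precursor of the granulins, differed by 0.46 ± 0.13 (1.37-fold, adjusted p = 0.0354) between the controls and by 0.86 ± 0.13 (1.82-fold, adjusted p = 0.00362) between the knockouts. Ppt1, the palmitoyl-protein thioesterase, differed by −0.04 ± 0.17 (adjusted p = 0.89) between the controls and was not called.

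The 3 pump subunits were all called in both line comparisons. Atp6v1h, a regulatory subunit of the part of the V-ATPase that faces the cytosol, read 3.79 and 3.66 on the Fra-1 control arrays, 3.79 and 3.68 on the Fra-1 knockout arrays, 2.12 and 2.33 on the Fra-2 control arrays, and 1.96 and 2.31 on the Fra-2 knockout arrays. It was higher by 1.5 ± 0.16 (2.82-fold, adjusted p = 0.00142) between the controls and by 1.6 ± 0.16 (3.04-fold, adjusted p = 0.00106) between the knockouts. Atp6v1a, the catalytic subunit, was higher by 1.59 ± 0.19 (3-fold, adjusted p = 0.00203) between the controls, and its second probe gave 1.73. Atp6v0d1, a subunit of the membrane part, was higher by 1.0 ± 0.17 (2-fold, adjusted p = 0.00732).

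For 9 of the 35 genes the array has more than 1 probe. Between the controls, Gaa gave 0.79 and 0.27, Fuca1 0.24 and −0.32, Lamp2 −0.02 and 0.30, and Asah1 −0.09 and −0.41, while both probes of Mitf (0.41 and 0.45) and of Tfe3 (−0.44 and −0.48) gave one direction. The dimmer probe of each of these 6 genes was not called over all probes.

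**Figure D2:**
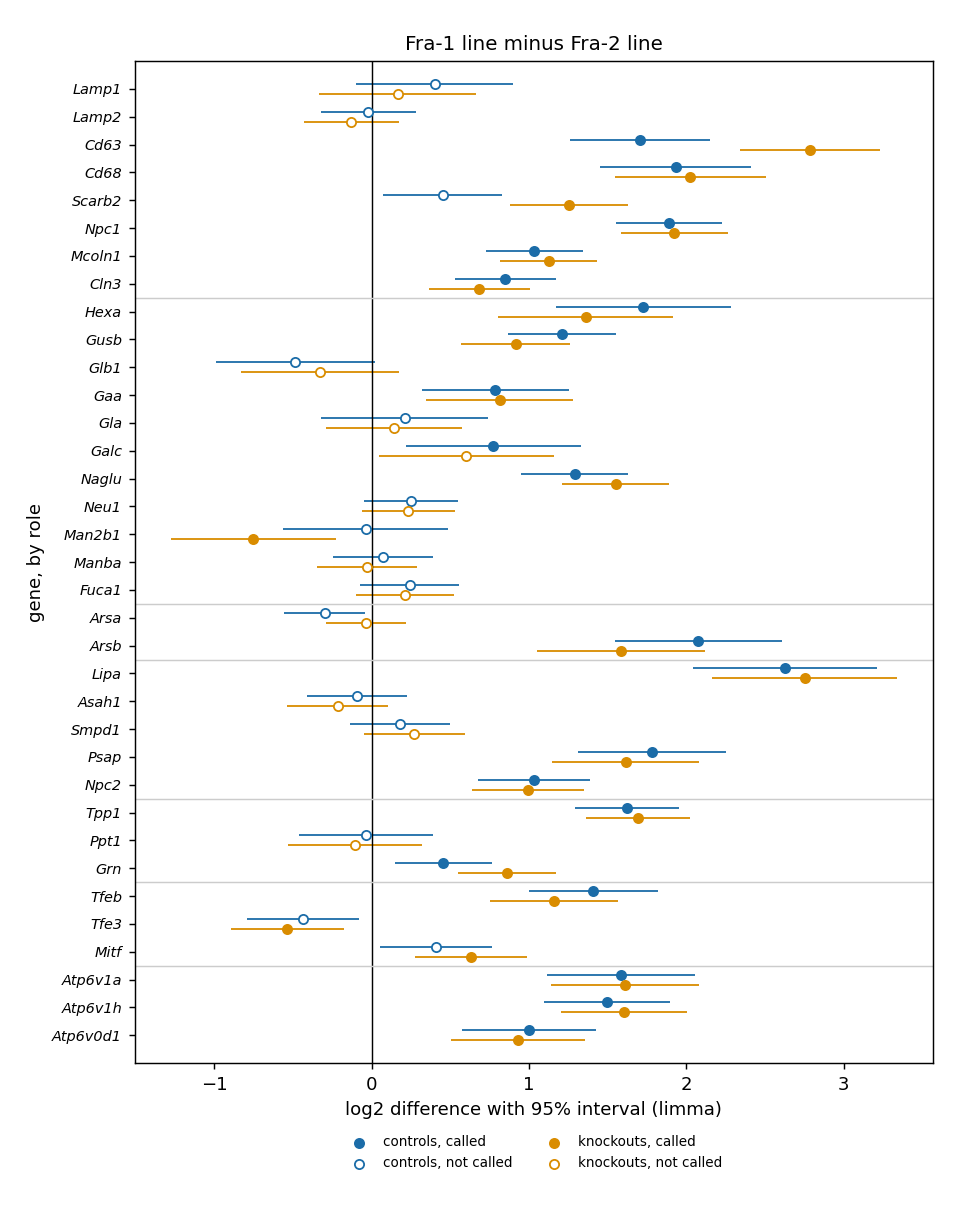
Difference of each gene between the Fra-1 line and the Fra-2 line in log2 units (x axis), for the control groups (blue) and the knockout groups (orange), with limma's 95% intervals; filled points have an adjusted p under 0.05. Lipa lies farthest right between the controls (2.63) and Cd63 between the knockouts (2.79), and Man2b1 and Tfe3 are the filled points left of 0.

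The MiT/TFE factors differed in direction. Tfeb read 1.5 and 1.34 on the Fra-1 control arrays, 1.36 and 1.67 on the Fra-1 knockout arrays, −0.03 and 0.05 on the Fra-2 control arrays, and 0.50 and 0.21 on the Fra-2 knockout arrays. All arrays of the Fra-1 line were above all of the Fra-2 line, by 1.41 ± 0.17 (2.66-fold, adjusted p = 0.00188) in the controls and 1.16 ± 0.17 (2.24-fold, adjusted p = 0.00334) in the knockouts. Tfe3 read 5.29 and 5.11 on the Fra-1 control arrays, 4.96 and 5.12 on the Fra-1 knockout arrays, 5.56 and 5.71 on the Fra-2 control arrays, and 5.47 and 5.69 on the Fra-2 knockout arrays. It read lower in the Fra-1 line, with a difference of −0.44 ± 0.15 (1.35-fold lower, adjusted p = 0.063) in the controls, which misses the threshold, and −0.54 ± 0.15 (1.45-fold lower, adjusted p = 0.0305) in the knockouts. The call in the knockouts had an adjusted p of 0.00702 to 0.158 over the alternatives and was lost, among others, without Fra-2 knockout 2 and without either Fra-1 knockout array. Mitf read 5.34 and 5.14 on the Fra-1 control arrays, 5.11 and 5.23 on the Fra-1 knockout arrays, 4.73 and 4.93 on the Fra-2 control arrays, and 4.44 and 4.64 on the Fra-2 knockout arrays. It read higher in the Fra-1 line, by 0.41 ± 0.15 (1.33-fold, adjusted p = 0.075) in the controls, also short of the threshold, and by 0.63 ± 0.15 (1.55-fold, adjusted p = 0.0175) in the knockouts. There its adjusted p was 0.00598 to 0.0996 over the alternatives, and the call was lost, among others, without Fra-2 knockout 1 and without either Fra-1 knockout array.

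Genes with and without an E-box were set side by side. Of the 10 genes with CACGTG, 6 were called higher between the controls, with a median difference of 0.82, and of the 22 without it, 12 were, with a median of 0.62. For TCACGTGA it was 4 of 5 (median 1.0) against 14 of 27 (median 0.46), and for TGAGTCA 2 of 4 (median 1.02) against 16 of 28 (median 0.78). These counts carry no test.

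**Figure D3:**
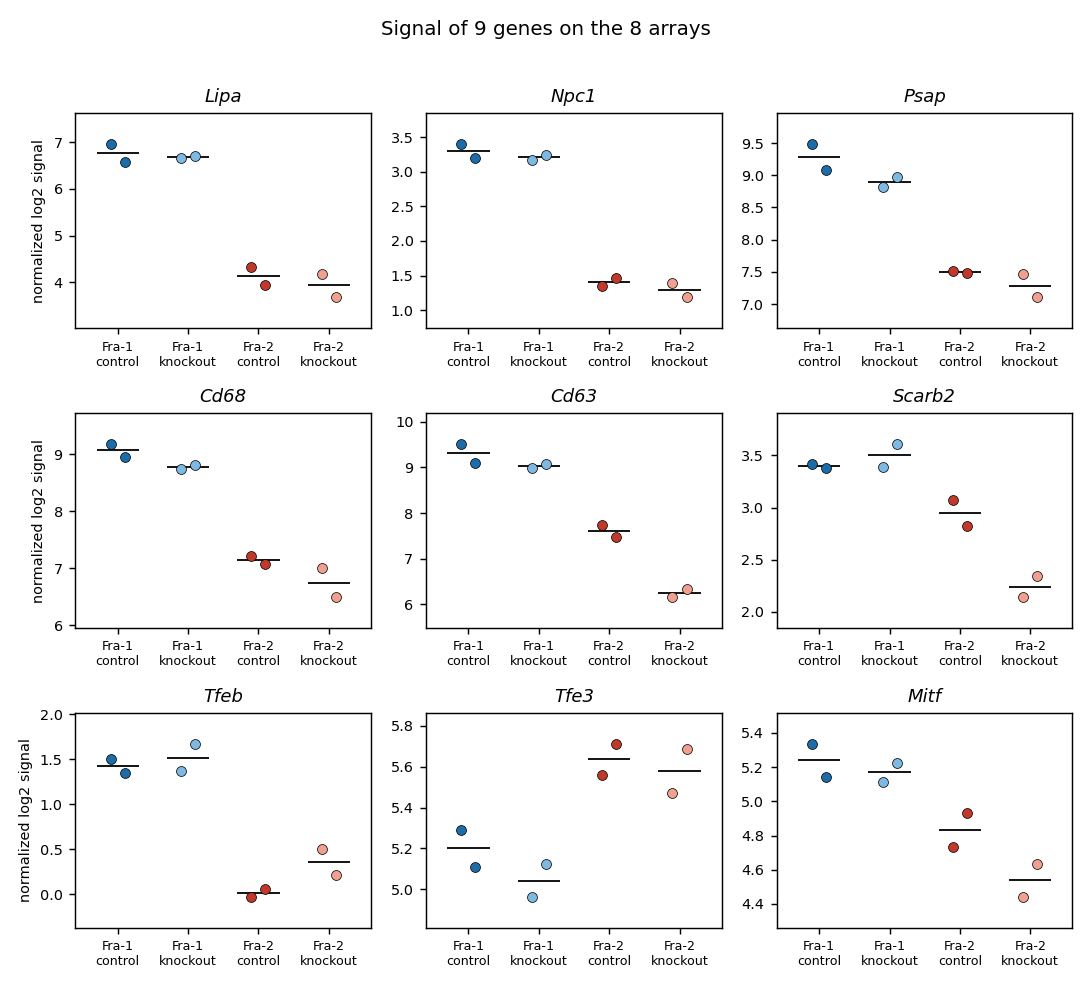
Normalized log2 signal of 9 genes (y axis, each panel with its own range) on the arrays of the 4 groups (x axis); points are single arrays and bars the means of 2. Lipa, Npc1, Psap, Cd68, Cd63 and Tfeb are higher in the Fra-1 line on every array, Tfe3 is lower there, and Cd63 and Scarb2 are lowest on the Fra-2 knockout arrays.

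Slide and scan went together, with 5 arrays on slide 1 and 3 on slide 2, both Fra-1 control arrays being on slide 1. With slide as a block the same number of genes, 20, passed between the controls, of which 18 were shared: Gaa (adjusted p = 0.053) and Grn (adjusted p = 0.0702) no longer passed, while Mitf (higher, adjusted p = 0.0463) and Glb1 (lower, adjusted p = 0.0498) did. The median was 0.89 with the block and 0.92 within slide 1. Between the knockouts the same 23 genes passed with the block, and the median was 0.73 within slide 1 and 0.98 within slide 2.

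Markers of several other cell types moved with the lines, each as a summed linear signal over the list relative to the 75th percentile. The 6 fibroblast markers summed to 109 to 157 on the Fra-1 control arrays, 40.6 to 63.3 on the Fra-1 knockout arrays, 1.37 to 3.22 on the Fra-2 control arrays and 2.74 to 3.12 on the Fra-2 knockout arrays, and 6 of 6 were called higher in the Fra-1 line between the controls. The 6 mesothelial markers summed to 10.1 to 14.7, 4.72 to 7.06, 0.686 to 0.767 and 0.791 to 0.878 in the same order, with 6 of 6 higher. Of these markers, Pdgfra and Lum of the fibroblast list and Upk3b, Lrrn4 and Bnc1 of the mesothelial list were not well above background on either Fra-2 group's arrays. They were tested because of their Fra-1 signal, so their calls and their share of the Fra-2 sums rest on values below background. B-cell markers summed to 1.42 to 3.33 on the Fra-1 control arrays and 38.4 to 80.9 on the Fra-2 control arrays (5 of 5 tested lower), and Cd79a, Pax5 and Ebf1 were not well above background on the Fra-1 controls.

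Mast cell markers summed to 2.19 to 2.63 against 43.8 to 135 (6 of 6 tested lower), T-cell markers to 1.91 to 2.26 against 8.32 to 8.71 (4 of 5 lower), and those of the large resident macrophages of the peritoneum to 14.3 to 14.7 against 77.3 to 121 (5 of 7 lower), with Timd4 not well above background on the Fra-1 controls. Markers of small or recruited macrophages summed to 2.68 to 3.72 against 4.62 to 10.2 (3 of 5 tested lower). Dendritic cell markers summed to 0.934 to 2.5 against 5.51 to 9.18 (3 of 5 tested lower). Neutrophil markers summed to 28.3 to 37 against 18.7 to 22.6 (1 of 6 tested higher, 1 lower). Eosinophil markers summed to 5.34 to 5.4 against 0.743 to 2.75 (1 of 3 tested higher). The called gene was Siglecf, which makes up most of the Fra-1 sum. Ccr3 and Ear6 were not called, and Epx and Prg2 were not well above background in either control group. The general macrophage list, which includes Cd68, had 1 of 8 higher, Cd68 itself (1.93), and 4 lower, with a median difference of −0.78. The lower ones were Cd14 (−3.94), Adgre1 (−1.61), Fcgr1 (−1.32) and Mertk (−0.64). Csf1r (−0.86), Lyz2 (−0.70) and Itgam (0.07) were not called. The sum was taken over the 7 that had values on every array, Cd68 included. It was 923 to 1166 on the Fra-1 controls and 1178 to 1324 on the Fra-2 controls. Cd68 is also a lysosomal gene under study, and it raised the Fra-1 sums more than the Fra-2 sums. Sums without Cd68 were not worked out. On the Fra-1 knockout arrays the fibroblast sum was below that of every Fra-1 control array and above that of every Fra-2 array. The part that cell makeup has in the line differences was not tested.

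Other lysosomal genes, 92 in all from lists that do not overlap the 35, showed the line difference too. Between the controls 52 were called higher and 10 lower, with a median of 0.68, where 18.1% of all features were higher and 17.8% lower. Between the knockouts 53 were higher and 8 lower, with a median of 0.63, where 22.3% of all features were higher and 18.8% lower. Of 15 other proton pump subunits 13 were higher and 0 lower in each comparison. In a list of 21 soluble proteins, which also holds the membrane enzyme Hgsnat, 13 were higher and 4 lower between the controls. There the counts were 9 and 2 of 20 other membrane proteins, 7 and 0 of 12 enzyme sorting genes, and 8 and 1 of 15 genes of nutrient signalling. Of 9 autophagy genes, 2 were higher and 3 lower between the controls, with a median of −0.28. The 4 lower of the 21 and the 2 higher autophagy genes were near the shares over all features.

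The pump subunit Atp6v0d2, known from osteoclasts and fused macrophages, had the greatest called difference among those 92. Its mean was 6.79 ± 0.27 (SD, n = 2) in the Fra-1 controls and −0.59 ± 0.08 in the Fra-2 controls, a difference of 7.38 ± 0.22 (SE, 167-fold, adjusted p = 7.41e-05). Fnip2, a partner of folliculin, differed by 3.17 (adjusted p = 4.73e-04) and Atp6v1c1, another pump subunit, by 2.99 (adjusted p = 1.40e-04). Rragd, a Rag GTPase, was not well above background on the Fra-2 arrays and was at least 5.23-fold higher in the Fra-1 controls (adjusted p = 0.0106). The bound takes, on each Fra-2 control array, the higher of the lowest signal well above background and the probe's own signal, and the adjusted p rests on values below background in the Fra-2 line. On the lower side were Hgsnat, an acetyltransferase of heparan sulfate breakdown, at −2.32 (adjusted p = 0.00681), the sialomucin Cd164 at −1.89 (adjusted p = 0.005), Tfec, the other member of the MiT/TFE family, at −1.74 (adjusted p = 0.0414), and the autophagy kinase Ulk1 at −1.40 (adjusted p = 0.00184). Between the knockouts Laptm4b, a lysosomal membrane protein, was also among the 4 lowest, at −1.54 (adjusted p = 0.00142).

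**Figure D4:**
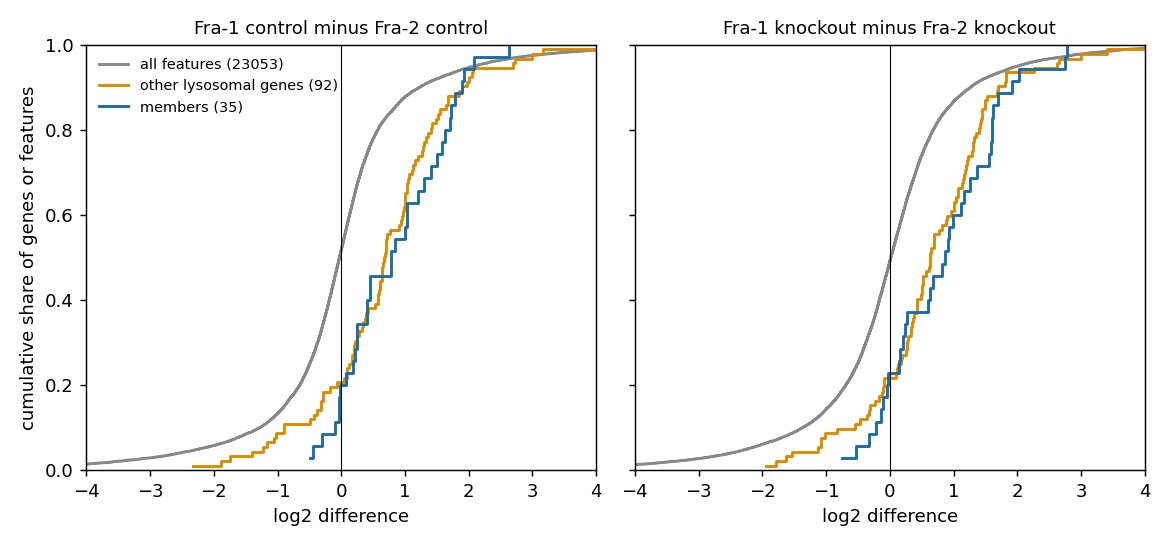
Cumulative share (y axis) of all 23053 features (grey), the 92 other lysosomal genes (orange) and the 35 genes (blue, "members") by log2 difference between the Fra-1 and Fra-2 lines (x axis, cropped at −4 and 4), for controls (left) and knockouts (right). Both lysosomal curves lie to the right of the grey one over most of their length, with medians of 0.79 and 0.68 between the controls and 0.86 and 0.63 between the knockouts.

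Loss of Fra-1 left no lysosomal gene past the threshold. By limma, 0 of the 35 were called between Fra-1 knockouts and their controls, where 0.013% of all features were, and 0 had an unadjusted p under 0.05, where 8.81% of features had. The smallest adjusted p was 0.565. Differences ran from −0.45 to 0.21 with a median of −0.06, against 0.03 over all features. Of the 35, 15 were above 0 and 20 below, where 55% of all features were above 0. For 34 of the 35 the 95% interval lay within 2-fold in either direction. The control and knockout arrays did not overlap for 14 genes, 6 higher and 8 lower, while 46% of all features did not overlap.

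The genes with the smallest p were all lower in the knockout. Npc2 read 8.00 and 7.66 on the Fra-1 control arrays, 7.43 and 7.51 on the Fra-1 knockout arrays, 6.81 and 6.78 on the Fra-2 control arrays, and 6.47 and 6.48 on the Fra-2 knockout arrays. The Fra-1 knockouts were below both Fra-1 controls, with a difference of −0.36 ± 0.15 (1.28-fold lower, adjusted p = 0.565). Psap gave −0.39 ± 0.19 (adjusted p = 0.638), Hexa −0.45 ± 0.23 (adjusted p = 0.64) and Man2b1 −0.40 ± 0.21 (adjusted p = 0.647). Lipa, Npc1 and Tpp1, which stood far apart between the lines, differed by −0.08 ± 0.24, −0.09 ± 0.14 and 0.11 ± 0.13. Tfeb differed by 0.10 ± 0.17 (adjusted p = 0.898), Tfe3 by −0.16 ± 0.15 (adjusted p = 0.783) and Mitf by −0.07 ± 0.15 (adjusted p = 0.914).

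The median knockout difference depended on which array was left out, and ran from −0.17 to 0.08. Fra-1 control 1 read above Fra-1 control 2 for 30 of the 35 genes, with a median gap of 0.19, where 53.3% of all features did, and without it the median knockout difference was 0.08 in place of −0.06. Within slide 1 the median was −0.13. No fibroblast or mesothelial marker was called in this comparison, though their sums were lower in the knockouts, as given above. Among the other lysosomal genes 0 of 92 were called. Those with the smallest p were Gm2a, the GM2 activator (0.39, adjusted p = 0.475), and the chloride transporter Clcn7 (0.59, adjusted p = 0.489) upward, and the pump subunit Atp6v1f (−0.59, adjusted p = 0.611, with 1 array left in each Fra-1 group after outlier spots were removed) and the autophagy receptor Sqstm1 (−0.33, adjusted p = 0.68) downward.

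On the arrays labelled Fra-2 knockout, Cd63 and Scarb2 read lower than on the Fra-2 controls, but no gene passed adjustment. By limma 0 of the 35 were called, where 0% of all features were, and 3 had an unadjusted p under 0.05, 1 higher and 2 lower, where 8.82% of features had. Differences ran from −1.36 to 0.63 with a median of −0.09, against −0.03 over all features. For 32 of the 35 the 95% interval lay within 2-fold. The groups did not overlap for 16 genes, 6 higher and 10 lower, where 34.9% of all features did not overlap. The median was −0.06 within slide 1 and −0.08 within slide 2.

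Cd63, whose array values are given above, was lower on both Fra-2 knockout arrays than on both controls, with a difference of −1.36 ± 0.18 (2.57-fold lower, adjusted p = 0.115) and a 95% interval of −1.81 to −0.92. Its adjusted p ranged from 0.047 to 0.605 over the alternatives, and it passed only with a prior variance that follows the signal level (adjusted p = 0.047). The difference was −1.57 within slide 1 and −1.15 within slide 2. Scarb2 read 3.42 and 3.38 on the Fra-1 control arrays, 3.39 and 3.61 on the Fra-1 knockout arrays, 3.07 and 2.82 on the Fra-2 control arrays, and 2.14 and 2.35 on the Fra-2 knockout arrays. The knockout arrays were the lowest of the 8, with a difference from the controls of −0.70 ± 0.15 (1.63-fold lower, adjusted p = 0.262). Arsb went the other way, by 0.63 ± 0.22 (1.54-fold, adjusted p = 0.486), on a dim probe, and Npc2 differed by −0.32 ± 0.15 (adjusted p = 0.613).

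The MiT/TFE factors differed by 0.35 ± 0.17 (adjusted p = 0.639) for Tfeb, −0.06 ± 0.15 (adjusted p = 0.98) for Tfe3 and −0.29 ± 0.15 (adjusted p = 0.649) for Mitf in the Fra-2 comparison. Of the 92 other lysosomal genes 0 were called. Atp6v0d2 had a mean of −2.26 ± 0.37 (SD, n = 2) in the Fra-2 knockouts and differed from the controls by −1.67 ± 0.22 (SE, 3.18-fold lower, adjusted p = 0.112). Sgsh, the sulfamidase, differed by −1.36 (adjusted p = 0.467) with 1 array left in each Fra-2 group after outlier spots were removed. Upward, the smallest p were those of Laptm4b (0.56, adjusted p = 0.409) and Ostm1, a partner of the chloride transporter CLC-7 (0.42, adjusted p = 0.472).

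**Figure D5:**
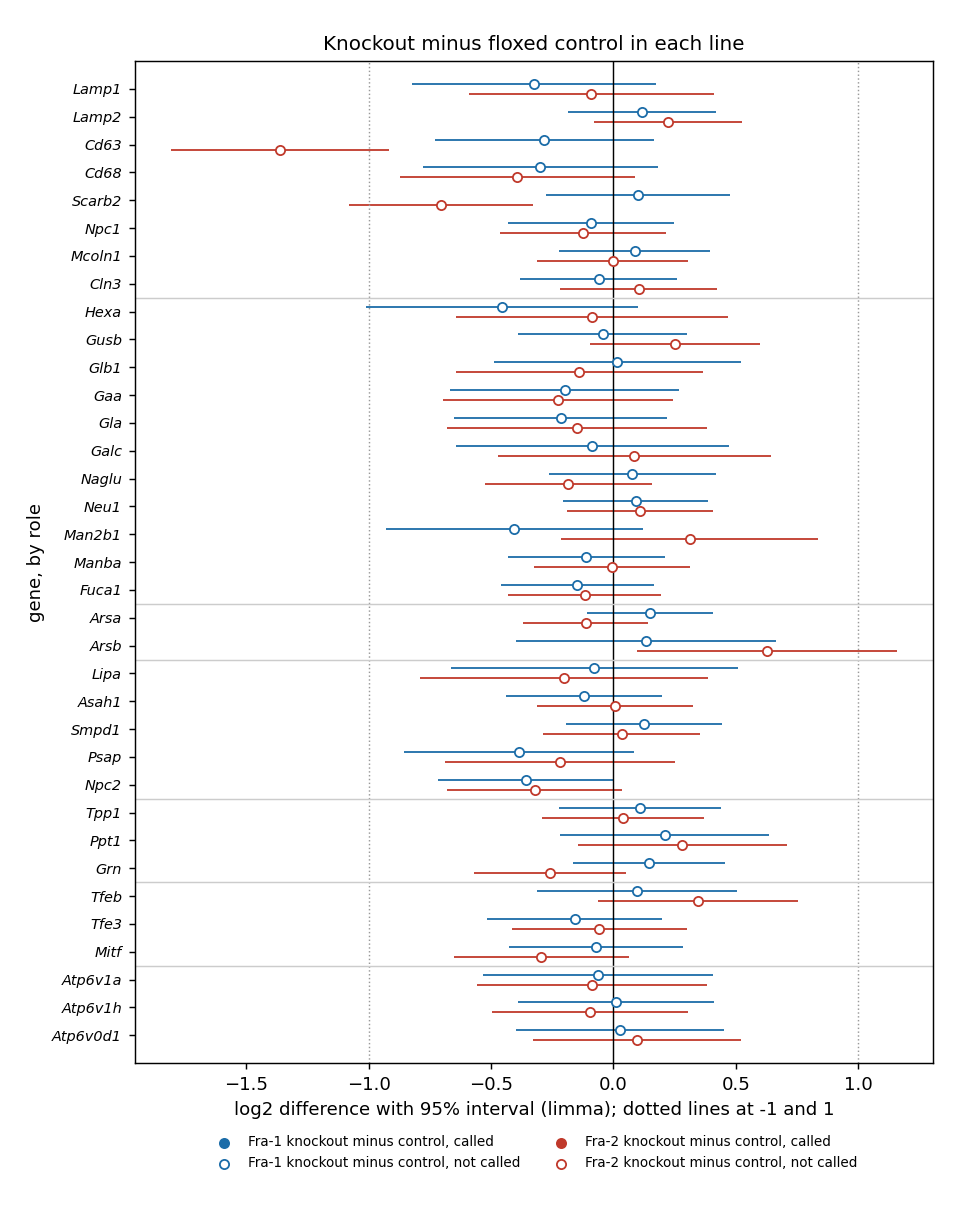
Difference of each gene between knockout and floxed control in log2 units (x axis) in the Fra-1 line (blue) and the Fra-2 line (red), with limma's 95% intervals and dotted lines at a 2-fold change. All points are open, since no gene passed the threshold, and Cd63 in the Fra-2 line (−1.36) is the one point beyond the dotted lines.

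Whether the knockouts acted differently on these genes was asked by the interaction, the Fra-1 difference minus the Fra-2 difference, which uses the same arrays as the comparisons above. By limma 0 of the 35 were called, where 0.00434% of all features were, and 2 had an unadjusted p under 0.05, where 9.55% of features had. They were Cd63 (1.08 ± 0.26, adjusted p = 0.316) and Scarb2 (0.80 ± 0.22, adjusted p = 0.367), both with a more negative difference in the Fra-2 line. Man2b1 (−0.72 ± 0.30, adjusted p = 0.533) and Grn (0.40 ± 0.18, adjusted p = 0.552) followed. The interaction was −0.25 ± 0.24 (adjusted p = 0.761) for Tfeb, −0.10 ± 0.21 (adjusted p = 0.893) for Tfe3 and 0.22 ± 0.21 (adjusted p = 0.756) for Mitf. Among the other lysosomal genes 0 of 92 were called, with Atp6v0d2 at 1.64 (adjusted p = 0.236) and Sort1, a sorting receptor, at −1.08 (adjusted p = 0.477).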

How the data were processed

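Scanner files of 8 Agilent arrays were used. The processed signal intensity was deposited by the authors as background-subtracted by Feature Extraction 11.5.1.1, per the file headers, and is not normalized between arrays. The series matrix holds log2 values that were deposited scaled to the 75th percentile and centred on each probe's median, as judged by setting them against the scanner signals. It served only as an alternative.

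Outlier spots were removed, spots of a probe averaged, and log2 signals expressed relative to the array's 75th percentile. Of 55681 probes, 28026 were named by accession through RefSeq (GRCm38.p6). The probe with the highest mean stood for a gene. A feature was tested if 1 group or more had it well above background on both arrays (23053 in all), and those with outlier spots were fitted on the arrays left. The precision is limited by the number of arrays.

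Group means were fitted with limma 3.58.1 in R 4.3.3 on all 8 arrays (4 residual degrees of freedom), with Benjamini-Hochberg adjustment per comparison and a threshold of 0.05. The fit was tested on simulated data. The line comparison of the knockouts and keeping features with missing arrays were chosen after seeing the data. The labels pair no samples between groups.

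Values on every array are given for Tfeb, Tfe3 and Mitf, for up to 8 called genes per direction with the smallest p, for those with the 4 smallest p in a comparison with fewer than 4 calls, and for genes whose probes disagreed. Galc, Scarb2 and the uncalled genes were named to account for every gene. The genes and lists were chosen with earlier results of these data known. Alternatives were other normalizations, background correction, filters, probe rules, slide, prior, floor and leaving out each array.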

Additional observations from a re-analysis of the deposited data

How the results depend on the processing

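The single-gene results recomputed under the alternatives were 46, chosen by the rule for giving array values in each comparison. Of the recomputed values, 852 kept their direction and side of the threshold, 7 came to pass and 6 changed sign. Another 20 no longer passed, all between the knockouts, of Man2b1, Tfe3, Mitf and Cln3. Other calls between the controls, among them Gaa, Grn and Galc, were not in this set. Gaa and Grn no longer passed with slide as a block, as given above. Between the controls, 17 to 24 genes were called over 10 alternatives and 17 to 20 with 1 array left out; between the knockouts, 20 to 24 and 17 to 23. In the Fra-1, Fra-2 and interaction comparisons 0 were called with any array left out, and the other alternatives gave 0 except the trended prior in the Fra-2 comparison, with 1 (Cd63). The median between the controls was 0.53 with the mean of probes, 0.92 within slide 1, and 0.65 to 0.94 with 1 array left out. Between the knockouts it was 0.73 within slide 1, 0.98 within slide 2, and 0.77 to 0.93 with 1 array left out. With 1 array left out, the Fra-1 median ranged from −0.1717 to 0.0775, the Fra-2 median from −0.0879 to −0.0236, and the interaction median from −0.1115 to 0.1092; the highest Fra-1 and interaction values were those without Fra-1 control 1. The 6 sign changes were within ranges close to 0 with 1 array left out: −0.0555 to 0.2512 for Tfeb in the Fra-1 comparison (−0.0555 also within slide 1), −0.1673 to 0.0245 for Mitf there, −0.1662 to 0.0509 for Tfe3 in the Fra-2 comparison, and −0.2089 to 0.0082 for Tfe3 in the interaction. Their cause was not tested. Where 1 array was left out, the lone array of its group was assumed to vary like the other groups. No paired analysis was possible because the labels carry no shared replicate numbers. Signal over background limits Arsb, Rragd and the dimmer probes, and 2 arrays per group leave wide intervals.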

Other observations

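Lyz2, the gene that carries the LysM Cre, read 8.93 and 9.41 on the Fra-2 control arrays, 8.80 and 8.79 on the Fra-2 knockout arrays, 8.72 and 8.22 on the Fra-1 control arrays and 8.35 and 8.52 on the Fra-1 knockout arrays. It was lower on both Fra-2 knockout arrays than on both Fra-2 controls, with a difference of −0.37 (limma, adjusted p = 0.739). Adgre1, a surface marker of mature mouse macrophages, differed between the control groups by −1.61 (limma, adjusted p = 0.00323), lower in the Fra-1 line, where Cd68 was higher. On the Fra-1 knockout arrays, replicate 2 read above replicate 1 for all but 3 of the 35 lysosomal genes, where 38.2% of all features read higher on replicate 1.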
